A study of Mus musculus with 12 samples.

Results

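Retained introns were examined in antigen-primed CD8 T cells with and without costimulation. They were taken as every node of type RI in the table of splicing values that had a number for both activated groups, which gave 797 introns in 681 genes out of 115403 nodes of all types. The other nodes were 89034 core exons, 12351 tandem ends, 8754 tandem starts, 1594 alternative acceptors, 1280 alternative donors, 1145 alternative first exons and 448 alternative last exons. The value of a node is Psi (percent spliced in, here a fraction from 0 to 1), which for a retained intron is the fraction of the gene's RNA at that place that still holds the intron.

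The cells were OT-I CD8 T cells, whose transgenic receptor recognizes the ovalbumin peptide SIINFEKL. In the Ag group (5 libraries) the cells had been transferred into C57BL6/J mice that received the peptide with control rat IgG, and in the Ag+Costim group (5 libraries) the peptide was given with agonist antibodies to OX40 (CD134) and 41BB (CD137). Cells were sorted from spleen and lymph nodes 4 days later according to the labels, with a slightly shorter interval in the study's methods. The Naive group (2 libraries) came straight from OT-I transgenic mice with no transfer, so a difference between Ag and Naive holds transfer and antigen together. All 12 libraries carry the same transgenic receptor, and the OT-I line was on a Rag-deficient background, so that the cells hold no other receptor. The sort took CD8+ CD45.1+ cells with both transgenic receptor chains. Libraries held 40028682 to 49294934 gene counts, apart from Ag replicate 4 with 24006053. All 7 CD8 T cell markers were detected in each group, at a summed level of 7310 to 10900 CPM (counts scaled to the library total) in Ag and 4080 to 5590 in Ag+Costim. The labels number the libraries of a group, and the study's figure legends describe them as individual biological replicates.

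An intron is normally cut out between a GT at its 5′ end (the donor) and an AG at its 3′ end (the acceptor), the latter preceded by a run of pyrimidines. A transcript that keeps an intron can be held in the nucleus, can be degraded by nonsense-mediated decay when the intron brings an early stop codon, or can be exported and translated as an alternative isoform. Lymphocytes and other cells are known to keep many introns at rest and to splice or degrade these RNAs as they become active. Psi comes with 1 value per group, so differences in Psi have no replicate check and were not tested. Differences above 0.05 in size were counted.

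The splice sites of introns whose values are described most closely are shown first, because they are the bases at which retention and splicing part. They were read 5′ to 3′ from GENCODE vM21 transcripts that hold the intron (GRCm38, the mm10 assembly). Each donor run has 3 exon bases followed by 10 intron bases, each acceptor run has 20 intron bases followed by 3 exon bases, and capitals mark the first and last 2 bases of the intron.
Srsf1 node 6, donor: gagGTaggttata
Srsf1 node 6, acceptor: aagttctgtctatccaatAGgga
Srsf2 node 6, donor: aagGTtattttgt
Srsf2 node 6, acceptor: tatgtatttttgtgcactAGgcg
Tardbp node 12, donor: aggGTgggtttgg
Tardbp node 12, acceptor: ccttcatttaatctctgcAGttc
Dhx30 node 8, donor: aagGTaaggtgac
Dhx30 node 8, acceptor: tgaatctcatattttttgAGatg
H2-Q10 node 8, donor: cagGTtagtgtgg
H2-Q10 node 8, acceptor: tcatgactctcattctctAGtgt
Pdcd4 node 14, donor: actGTaagagttg
Pdcd4 node 14, acceptor: agactttttcatctttccAGgga
Med12 node 46, donor: cagGTaccatggt
Med12 node 46, acceptor: taccaatcctactcttgtAGatc
All of these begin with GT and end with AG. Srsf1 lies at chr11:88049216-88049411 (plus strand), Srsf2 at chr11:116850354-116850855 (minus), Tardbp at chr4:148617706-148618646 (minus), Dhx30 at chr9:110115162-110115490 (minus), H2-Q10 at chr17:35473801-35474140 (plus), Pdcd4 at chr19:53929193-53929716 (plus) and Med12 at chrX:101294013-101294087 (plus).

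A second kind of member looked different. There were 42 members of 30 bases or fewer in 25 genes, of which 13 were a single base. They are gaps of the annotation that are too small to be removed as introns by the usual splicing reaction, and they are shown whole, with the gap in capitals and the flanking exon bases in lower case.
Acbd4 node 7: atgcctggaacaggCaagatgagcaggga
Macf1 node 44: gacaggcagaaagaGcactggagaggcac
Oas1b node 5: ccaatctcatcagtGggcgtaccccgccg
Itgal node 38: tgggctgtctagagCccctccgggagagt
Cfl1 node 6: agggcaagcctttgTGagccacctccagcc
These lie at chr11:103104109-103104109, chr4:123461159-123461159, chr5:120817669-120817669, chr7:127333584-127333584 and chr19:5493491-5493492. Macf1, which encodes a cytoskeletal linker, held 7 such gaps, and Oas1b, an interferon-induced sensor of double-stranded RNA, held 3 of 1 base. Psi was near 1 for most of them, with a median of 0.961 in Ag and 0.966 in Ag+Costim. In Acbd4 Psi was 0.990 in Ag and 0.975 in Ag+Costim. In Itgal, the integrin chain of LFA-1, it was 0.997 and 0.998. The pair of gaps in Cfl1, which encodes the actin-severing protein cofilin, had the highest Psi of all members in Ag+Costim (0.99993 each). Their share of transcript counts, described further on, was 24.5 to 37.7% over the 12 libraries, far from Psi. Among the single-base gaps 1600014C10Rik was the exception, with a Psi of 0.0141 in Ag and 0.0168 in Ag+Costim.

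Most members corresponded to known introns. The coordinates of 778 equalled an intron of GENCODE vM21, and for 775 the host gene had both a transcript that holds the intron within an exon and a transcript that splices it. A protein-coding transcript held the intron for 732 members, a transcript typed as retained_intron for 123, and one typed as a target of nonsense-mediated decay for 54 (a member can have several). At least 1 exon of another gene on the opposite strand overlapped 64 members, and the kit used does not mark strand, so that reads of the 2 genes cannot be told apart there.

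Psi of the members spread over the whole range, with a median of 0.422 in Ag and 0.400 in Ag+Costim. Psi was below 0.2 in Ag for 279 introns, between 0.2 and 0.8 for 233 and above 0.8 for 285. The middle 50% of the introns ranged from 0.114 to 0.897 in Ag. Core exons, for comparison, had a median of 0.971 in Ag and 0.984 in Ag+Costim.

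Psi was lower in longer introns. The median length was 223 bases and the range ran from 1 base to 8683 bases, the longest being an intron in the 5′ untranslated region (UTR) of Tmbim1 with a Psi of 0.261 in Ag and 0.127 in Ag+Costim. The 189 introns of up to 100 bases had a median Psi of 0.868 in Ag, the 178 longer ones of up to 200 bases 0.524, and the 224 that follow, of up to 500 bases, 0.282. The next 113, of up to 1000 bases, had a median of 0.222, the 61 of up to 2000 bases 0.304 and the 32 over 2000 bases 0.127. The order was thus broken by the group between 1000 and 2000 bases. The shortest group includes the 42 gaps of up to 30 bases (median 0.961 in Ag). Its other 147 introns, of 31 to 100 bases, had a median of 0.649 in Ag and 0.65 in Ag+Costim. In Ag+Costim the medians from short to long were 0.873, 0.542, 0.307, 0.204, 0.322 and 0.109. Across the 797 introns the correlation of Psi in Ag with log10 length was -0.30 (Pearson's r) and -0.28 (Spearman's rho), given as a description since introns of the same library are not independent replicates. Among the 676 introns with GT and AG ends it was -0.13 and -0.14.

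**Figure D1:**
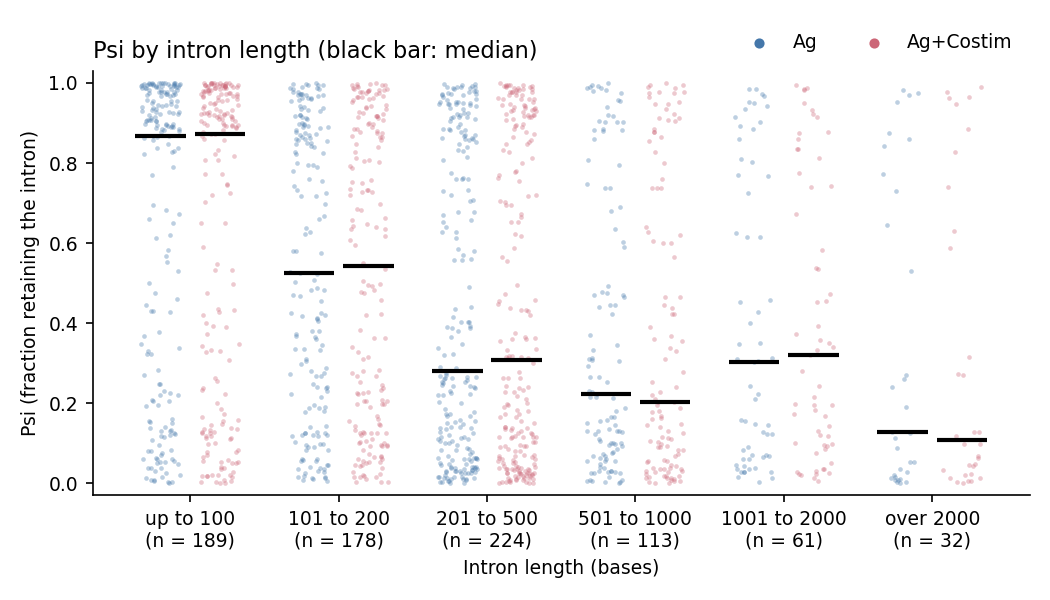
Psi of each retained intron (y axis, fraction) by length group in bases (x axis, n introns in brackets), with Ag in blue, Ag+Costim in red and the median as a black bar. The median in Ag is 0.868 in introns of up to 100 bases and 0.127 in those over 2000, with wide spread inside every group and little difference between Ag and Ag+Costim. The first group includes 42 gaps of up to 30 bases, and its 147 introns of 31 to 100 bases have a median of 0.649 in Ag.

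The bases at the intron ends went with Psi as well. GT and AG ends were present in 676 introns (median Psi in Ag 0.306), GC and AG ends in 20 (0.901), and other ends in 76 (0.951). Tmem47 held the only intron with AT and AC ends (0.923), and its gene counts were listed at 0 in all 12 libraries. A further 24 were too short to have 2 ends, or no sequence was read for them. Among GT and AG introns, the donor began with GTAAG, the form that pairs best with U1 snRNA, in 25.5% of introns with Psi below 0.2 in Ag, in 13.7% of those from 0.2 to 0.8 and in 12.6% of those above 0.8, against 18.2% of all 665 whose donor was read. GTGAG was found in 27.3%, 26.0% and 13.7%, against 23.3% of all. These letters were read at the first 5 intron bases on the gene's strand only. The median share of pyrimidines in the last 20 intron bases was 70.0%, 65.0% and 65.0% in the same order.

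Position in the host gene separated the introns further. The 221 introns that cross a boundary of the coding region, and so replace the start or the end of the protein, had the lowest median Psi (0.155 in Ag, 0.129 in Ag+Costim). The 227 in the 5′ UTR had medians of 0.323 and 0.308, and the 159 in the 3′ UTR 0.790 and 0.813. The 132 within the coding region had medians of 0.879 and 0.889. They include 32 gaps of up to 30 bases, and the 100 longer ones had medians of 0.83 in Ag and 0.772 in Ag+Costim. Of those within the coding region and over 30 bases long, 74 of 100 had a length that is a multiple of 3, so that keeping the intron preserves the reading frame, against 218 of 655 (33.3%) elsewhere. The 74 had a median Psi of 0.847 in Ag and the other 26 a median of 0.544. Members within the coding region are by construction those whose retaining transcript is annotated as translated through the intron. The highest Psi in Ag belonged to such an intron, 69 bases in Ftl1, the light chain of the iron store ferritin, a gene with close copies in the genome (0.99993 in Ag and 0.99988 in Ag+Costim).

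Psi differed by more than 0.05 between Ag+Costim and Ag in 269 introns. It was higher in Ag+Costim in 120 introns of 115 genes (15.1%) and lower in 149 introns of 143 genes (18.7%), and 66.2% lay within 0.05. Over all 115403 nodes 12.7% were higher and 6.44% lower, with 10.6% and 2.34% among core exons. Alternative donors (16.2% higher, 17.7% lower) and alternative acceptors (14.7% and 15.6%) had shares near those of retained introns. The median difference over the 797 introns was -0.00096 and 367 introns were higher by any amount against 430 lower. A Psi above 0.5 in Ag and below it in Ag+Costim was found in 24 introns, and the reverse in 19. Differences by length were small, with medians from -0.00375 (between 500 and 1000 bases) to 0.0015 (between 1000 and 2000 bases). Over the 42 shortest gaps 38 lay within 0.05, as did all 13 of 1 base.

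**Figure D2:**
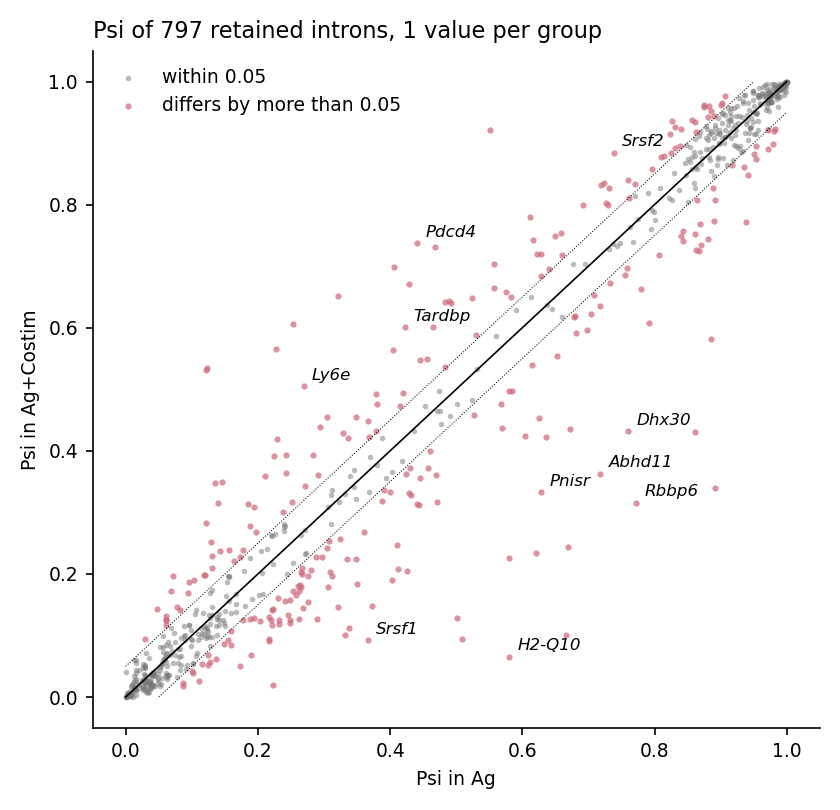
Psi in Ag (x axis) against Psi in Ag+Costim (y axis) for the 797 retained introns, each group having 1 pooled value per intron. The solid line marks equal Psi and the dotted lines a difference of 0.05, beyond which 120 introns lie above and 149 below, and host genes of 10 introns are named.

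Large differences were more frequent in weakly expressed hosts. Of 117 introns in hosts with a mean log2 CPM of up to 3 over the 12 libraries, 29 were higher and 30 lower, with 49.6% within 0.05. In the 154 introns of hosts above 7, 85.1% lay within 0.05. Lmo4, a LIM-domain transcriptional regulator, had the largest difference of all (Psi 0.666 in Ag, 0.101 in Ag+Costim) at a host level of 3.30, and Aifm2, the antioxidant protein FSP1, came next (0.891 and 0.340) at 0.76. The largest positive differences were in Sik2, a salt-inducible kinase (0.124 and 0.535, host level 4.2), and Ncr1, a receptor of natural killer cells (0.121 and 0.532, host level 0.81). These 4 were named after their values were seen. The introns described next were taken from hosts with a mean log2 CPM above 5, which left 435 introns, 50 of them higher and 60 lower.

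For these introns, library values were obtained from transcript counts as the share of counts in transcripts that hold the intron among those that hold or splice it. That share was computed for 707 introns with at least 20 such counts in every library. It comes from the same reads as Psi and is therefore no independent test, and transcripts that differ in the intron often differ elsewhere too. Psi and share in Ag had a Spearman's rho of 0.78 across the 707 introns, and the differences one of 0.38 (descriptions, over introns that share libraries). Where Psi was lower by more than 0.05 (131 introns), the mean share was lower in 87 and higher in 37. Where Psi was higher (104 introns), the mean share was higher in 75 and lower in 17.

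Among introns with lower Psi in Ag+Costim, H2-Q10 came first. It encodes a secreted class I molecule of the major histocompatibility complex, and its sequence is close to that of other H2 genes, so reads may be shared among them. Psi of the 3′ UTR intron was 0.580 in Ag and 0.0657 in Ag+Costim, and Psi of its neighbour at chr17:35473590-35473767 was 0.509 and 0.0939. The share of counts that hold it was 31.8, 41.9, 51.0, 19.3 and 55.4% in the Ag libraries and 17.5, 16.1, 17.4, 16.4 and 15.5% in the Ag+Costim libraries, while both Naive libraries were higher (73.1 and 85.0%). Every Ag library lay above every Ag+Costim library. H2-Q10 itself was higher in Ag+Costim, at 137 ± 28.9 CPM (SD, n = 5) against 23.4 ± 15.5 (n = 5), with a log2 fold change of 2.56 (edgeR quasi-likelihood test, adjusted p = 2.42e-05).

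Named introns with lower Psi also lay in genes that act on RNA. Srsf1 encodes an SR protein that binds exons and recruits the splicing machinery. Psi of an intron of 196 bases that crosses the end of its coding region was 0.366 in Ag and 0.0924 in Ag+Costim. Its share was 15.9, 46.6, 42.1, 41.2 and 44.3% in Ag and 20.4, 24.2, 20.7, 35.9 and 19.0% in Ag+Costim, so the groups overlapped through Ag replicate 1 alone. The other Srsf1 intron had a Psi of 0.978 and 0.996, and Srsf1 counts were 363 ± 73.1 CPM in Ag+Costim against 108 ± 28.4 in Ag (log2 fold change 1.74, edgeR adjusted p = 1.8e-06). Dhx30 encodes an RNA helicase needed for mitochondrial ribosomes, and its 5′ UTR intron had a Psi of 0.760 in Ag and 0.432 in Ag+Costim. The Dhx30 share was 38.5, 43.3, 86.3, 44.3 and 62.4% in Ag and 19.2, 8.57, 60.4, 16.5 and 8.65% in Ag+Costim. Only Ag+Costim replicate 3 reached into the range of Ag. Pnisr, a serine- and arginine-rich nuclear protein, had a Psi of 0.628 and 0.333, and shares of 22.5 to 68.8% (median 33.7%) in Ag and 6.91 to 26.3% (median 18.8%) in Ag+Costim that overlapped.

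The other introns on the lower side belonged to genes of varied function. For Rbbp6, a ubiquitin ligase tied to 3′ end processing, Psi of an intron of 4350 bases was 0.772 in Ag and 0.316 in Ag+Costim, whereas the share of counts was low in both (6.62 ± 1.28% and 4.84 ± 1.25%, n = 5 each). Here the level of Psi and the level of the share stood far apart. Abhd11, a mitochondrial hydrolase, had a lower Psi (0.718 and 0.363) but a mean share that was higher, at 15.6 ± 7.22% in Ag and 28.0 ± 18.3% in Ag+Costim with overlap. For Ssbp1, which binds single-stranded mitochondrial DNA, Psi was 0.403 and 0.190, and every Ag library (18 to 28.0%) exceeded every Ag+Costim library (8.55 to 17.4%). Shisa5, an endoplasmic reticulum protein linked to apoptosis, had a Psi of 0.412 and 0.208, Nipa2, a magnesium transporter, 0.222 and 0.0188, and Ddb2, which recognizes ultraviolet damage in DNA, 0.604 and 0.424. Their shares overlapped between the groups. In Ag the mean shares were 97.1% for Shisa5, 100% for Nipa2 and 78.4% for Ddb2, each above the level of Psi.

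On the side of higher Psi in Ag+Costim, Pdcd4 came first. It encodes an inhibitor of the translation helicase eIF4A, and Psi of its 3′ UTR intron was 0.441 in Ag and 0.738 in Ag+Costim. The share was 12.3, 12.2, 11, 18.4 and 12% in Ag and 29.3, 67.7, 27.7, 27.9 and 22.5% in Ag+Costim, so every Ag+Costim library was above every Ag library. Pdcd4 counts fell by 1.41 on the log2 scale (adjusted p = 0.000196, edgeR). In Naive the share was 29.3 and 26.5%. Ly6e, a GPI-anchored surface protein, had a Psi of 0.269 and 0.505, yet its share was 99.8% or more in all libraries, since nearly all of its counts were in transcripts that hold the intron.

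Tardbp and Srsf2 also had higher Psi in Ag+Costim. Tardbp encodes TDP-43, an RNA-binding protein that regulates its own RNA through alternative processing of its 3′ end. Psi of the Tardbp intron of 941 bases was 0.422 in Ag and 0.601 in Ag+Costim. The share was 67.1, 91.8, 91.2, 86.3 and 91.6% in Ag and 91.5, 73.1, 92.9, 89.7 and 87.8% in Ag+Costim, which overlapped fully. Tardbp counts rose by 0.82 on the log2 scale (edgeR adjusted p = 4.67e-05), from 89.9 ± 10.5 to 159 ± 24.9 CPM. Srsf2 encodes an SR protein, and its 3′ UTR intron had a Psi of 0.738 and 0.884. The Srsf2 share was 86.5 to 91.2% in Ag and 89.0 to 93.7% in Ag+Costim, with 69.7 and 63.9% in Naive. Both activated groups were above Naive there, while their own ranges overlapped. Srsf2 counts were 324 ± 54.0 and 304 ± 126 CPM (log2 fold change -0.09, adjusted p = 0.783). The remaining named introns were in Rnf20, a ubiquitin ligase of histone H2B (Psi 0.483 and 0.641), Cant1, a nucleotidase (0.305 and 0.456), Snx12, a sorting nexin (0.242 and 0.393), Suv420h1, a histone H4 methyltransferase (0.211 and 0.358), Aebp2, a Polycomb cofactor (0.492 and 0.640), and Ankra2, an ankyrin repeat protein (0.293 and 0.439). The Suv420h1 member starts with GT but ends with AA. Its share of counts was 100% in every group, so its higher Psi had no counterpart in the share.

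**Figure D3:**
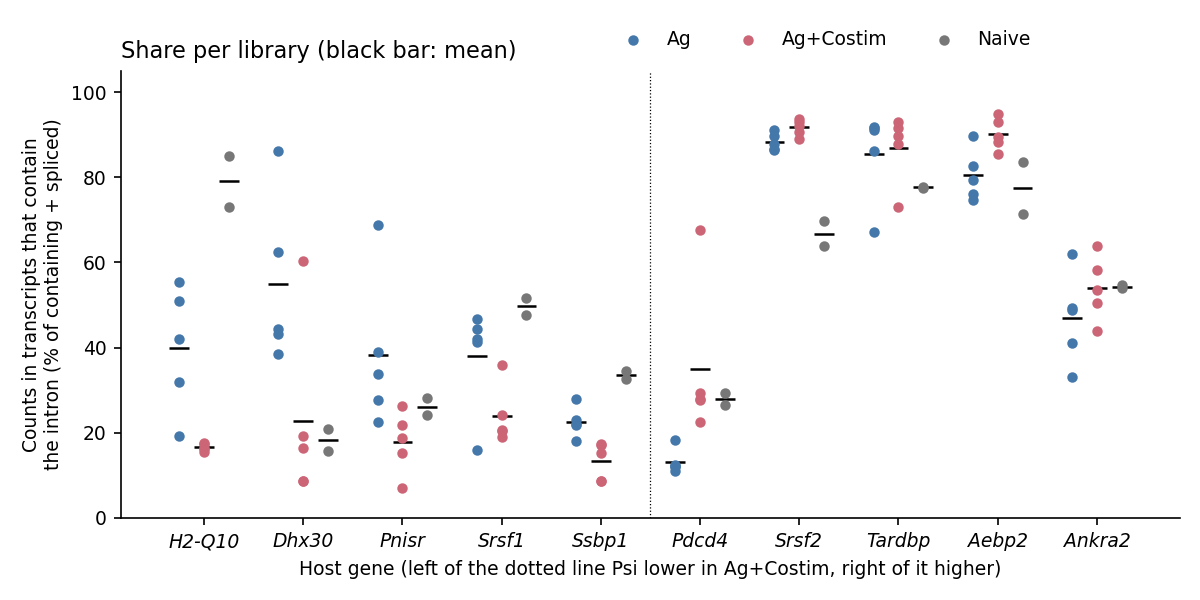
Share of counts in transcripts that hold the intron (y axis, percent of those that hold or splice it) for 10 host genes, 1 point per library and the mean as a black bar. H2-Q10, Ssbp1 and Pdcd4 separate the 5 Ag from the 5 Ag+Costim libraries, while Srsf2, Tardbp, Aebp2, Ankra2, Pnisr, Srsf1 and Dhx30 overlap.

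Grouped by the role of the host, splicing and RNA-binding genes held 20 introns, of which 6 had lower Psi in Ag+Costim by more than 0.05 and 2 had higher Psi, against the shares over all members given above. Besides Dhx30 and Srsf1, the lower ones were in Luc7l3, a U1-associated protein (0.249 and 0.158), Rbm12b1 (0.579 and 0.497), Rbm14 (0.0867 and 0.0227) and Rbmx (0.0999 and 0.0428), all RNA-binding proteins. The intron in Prpf8, the core protein of the spliceosome's active site, had a Psi of 0.869 and 0.918. Ribosomal protein genes held 16 introns with a low median Psi (0.0163 in Ag). Introns at or below that median cannot fall by more than 0.05, so the count of lower ones says little here. Psi was higher in 4 of the 16 and lower in none, against 15.1% higher and 18.7% lower over all members. These 4 were in the 5′ UTR of Rps27a (0.194 and 0.308), Rpl30 (0.118 and 0.198), Rpl41 (0.197 and 0.269) and Rpl27 (0.178 and 0.239). The Rpl27 share was 15.7 to 29.1% in Ag and 28.3 to 45.0% in Ag+Costim, with a small overlap, and those of Rpl41 touched as well (13.6 to 18.9% and 18.7 to 27.6%). The Rpl30 shares overlapped (43.1 to 52.7% and 40.8 to 52.0%). Ribosomal protein genes have many processed pseudogenes, and how reads were divided among them was not tested. Of the 8 introns of translation factor genes, too few to set against the shares over all members, none were higher and 2 were lower. These were in Eif2b4 (0.322 and 0.147), a subunit of the exchange factor eIF2B, and Eif4g1 (0.128 and 0.0571), the scaffold of the cap-binding complex. The 2 introns in T cell genes barely differed, with 0.0613 and 0.0843 in Lck, the kinase of the T cell receptor, and 0.0806 and 0.0652 in Tnfrsf18, which encodes GITR.

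The change of the host gene's counts was compared next. Of the 681 hosts, 674 passed the filter on low counts, and in Ag+Costim against Ag 204 rose (30.3%) and 242 fell (35.9%) (edgeR quasi-likelihood test, adjusted p below 0.05), while 26.6% of all 18817 genes tested were called higher and 26.5% lower. With upper-quartile scaling, which moved the median over all genes from -0.05 to -0.24 on the log2 scale, the split became 162 higher and 306 lower. The shares over all genes given above are from the main scaling and are not the background of this split. Of 225 introns in hosts that rose, 33 had higher Psi and 47 lower. Of 298 introns in hosts that fell, 42 had higher Psi and 53 lower, and of 266 in hosts not called, 45 and 49. In hosts with a mean log2 CPM above 5, 50 of all 435 introns had higher Psi and 60 lower. The counts were 16 and 26 of 147 where the host rose, 14 and 24 of 167 where it fell, and 20 and 10 of 121 where it was not called. Across 789 introns, the Psi difference and the log2 fold change of the host had a Pearson's r of -0.07 and a Spearman's rho of 0.00, and across the 435 with the stronger hosts -0.10 and 0.02. Examples of all combinations occurred. Srsf1 and H2-Q10 had lower Psi in hosts that rose, Ssbp1 had lower Psi in a host that fell (149 ± 9.65 and 90.6 ± 6.62 CPM), Tardbp had higher Psi in a host that rose, and Pdcd4 had higher Psi in a host that fell. In Ag against Naive, which shares the Ag libraries, 208 hosts were called higher (background 24.2%) and 206 lower (background 22.5%). Psi was available for Ag and Ag+Costim.

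**Figure D4:**
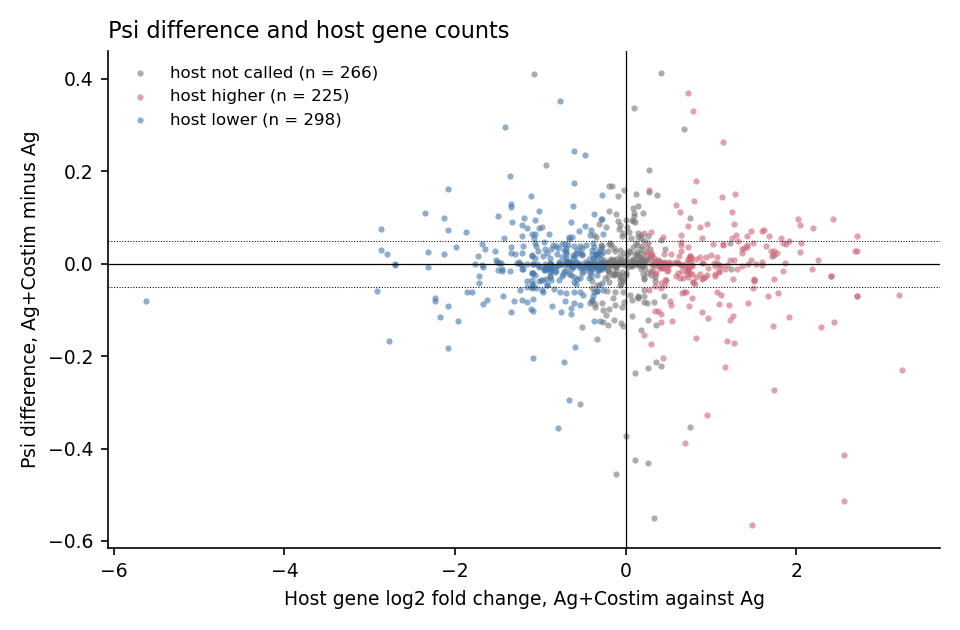
Psi difference, Ag+Costim minus Ag (y axis), against the log2 fold change of the host gene's counts in the same comparison (x axis) for 789 introns, coloured by the edgeR call of the host. The points of all 3 classes lie on both sides of 0, with dotted lines at a difference of 0.05.

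A test with replicates was available for transcripts. Each transcript that holds a member intron was compared with the other transcripts of its gene (edgeR diffSpliceDGE). Of 1238 such transcripts 1044 were tested, and 19 were used more in Ag+Costim (1.82%) and 7 less (0.67%), while 1.42% of all 41844 transcripts tested were used more and 0.985% less. With limma's diffSplice, 39 were used more and 27 less, and 10 transcripts were called by both tools. The shares over all transcripts with limma are not given here, so its counts are not set against a background. The 26 called transcripts belonged to 21 genes. Of the 26, 11 were listed at 0 in every Ag library and 2 in every Ag+Costim library. Transcript counts are the authors' estimates, and how reads were divided among the transcripts of a gene was not tested.

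Med12, a subunit of the Mediator kinase module, gave the strongest of these calls. Its coding transcript with the 75-base intron of node 46 had 0 counts in all 5 Ag libraries, and 37.7, 53.1, 34.6, 41.0 and 37.0 CPM in Ag+Costim. The Naive libraries held 74.8 and 79.4 CPM. With 3 counts per library as the floor, the level in Ag+Costim was at least 517-fold higher than in Ag, a bound with no test of its own. Its usage against the other Med12 transcripts was called at an adjusted p of 7.14e-14 (edgeR). The share of counts in transcripts that hold the intron was 19.4 ± 3.62% in Ag, 99.1 ± 0.618% in Ag+Costim and 98.2 and 97.9% in Naive. Psi, however, was 0.771 in Ag and 0.833 in Ag+Costim, so the 2 measures differed widely in Ag. Med12 as a whole was at 17.7 ± 3.64 and 43.7 ± 7.99 CPM.

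The same pattern of 0 in every Ag library was seen for a transcript of Cbx6, a Polycomb chromobox protein, and for one of Rubcn, which inhibits autophagy. The Cbx6 transcript had 9.45 to 26.3 CPM (median 13.4) in Ag+Costim, at least 198-fold above Ag (edgeR adjusted p of the usage test 8.8e-11), and the Rubcn transcript had 13.9 to 26.8 CPM (median 21.0), at least 259-fold above Ag (edgeR adjusted p of the usage test 1.3e-07). A second Rubcn transcript that holds the same intron went the other way, with 3.43 ± 2.0 CPM in Ag and 0 in all Ag+Costim libraries (edgeR adjusted p = 3.85e-07). Psi of both introns differed little, with 0.948 and 0.985 for Cbx6 and 0.912 and 0.956 for Rubcn. The share of counts in transcripts that hold the Cbx6 intron was 100% in every group. That call was therefore not between transcripts that hold the intron and those that splice it. The Rubcn share was 82.1 ± 39.9% in Ag and 100% in Ag+Costim. The Rubcn member has 42 bases and begins with CA, not GT. In Ube2l3, a ubiquitin-conjugating enzyme, the called transcript was at 0 in all Ag+Costim libraries, at 0 in Ag replicates 1 and 3, and at 174, 144 and 243 CPM in the other Ag libraries, while Psi stayed at 0.999 in both groups. The Ube2l3 call (edgeR adjusted p = 5.36e-05) was not made by limma (adjusted p = 0.408). No annotated Ube2l3 transcript splices this member, so it has no share.

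Other calls concerned transcripts present in both groups. A Shisa5 transcript was at 248 to 403 CPM in Ag and 19.1 to 44.0 CPM in Ag+Costim, with no overlap and an adjusted p of 0.000322 (edgeR), and its direction was that of Psi. It held 8.8% of Shisa5 counts in Ag and 2.01% in Ag+Costim. Most counts it was compared with were in transcripts that neither hold nor splice the intron. Its share among counts that hold or splice the intron was 97.1% in Ag and 95.1% in Ag+Costim, with overlap. A Cox17 transcript with an intron of 3296 bases in the 3′ UTR was at 2.44 to 5.25 CPM in Ag and 9.92 to 36.0 CPM in Ag+Costim (edgeR adjusted p = 0.026). Cox17 delivers copper to cytochrome c oxidase. The share of Cox17 reached from 1.34 to 2.12% in the Ag libraries and from 4.5 to 16.1% in those of Ag+Costim, with 16.1 and 12.6% in Naive, and its Psi was 0.00346 and 0.00685. A transcript of Rasal3, a Ras GTPase-activating protein of T cells, was at 4.71 to 24.7 CPM in Ag and 34.0 to 130 CPM in Ag+Costim (edgeR adjusted p = 0.000922), with a Psi of 0.524 and 0.482. For Ly6e the called transcript was at 0.269 to 125 CPM in Ag and 0.162 to 0.278 CPM in Ag+Costim (edgeR adjusted p = 0.00539), opposite to Psi, and Ag replicate 2 lay within the Ag+Costim range. Tmem41b, a lipid scramblase, was called as well (adjusted p = 0.0208 with edgeR and 0.431 with limma), from 10.2 ± 14.0 CPM in Ag+Costim, where replicates 4 and 5 held nearly all counts. The Tmem41b share of counts that hold the intron was 100% in every group. Rev3l, the catalytic subunit of DNA polymerase zeta, just missed the threshold (adjusted p = 0.0514, edgeR). In Ag against Naive, 6 of the 1044 transcripts were used more (background 0.564%) and 17 less (background 1.00%). The number of calls was 12 without Naive replicate 1 and 8 without Naive replicate 2, and 27 transcripts were used more and 35 less with limma. The background shares here are those of edgeR alone.

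Finally, the annotated class of retained_intron transcripts was examined per library. It covers 21848 transcripts in 9421 genes, of which 143 hold a member intron. The class took 4.71, 5.09, 4.14, 5.96 and 4.57% of annotated transcript counts in Ag and 3.42, 3.48, 3.33, 3.80 and 3.54% in Ag+Costim, and 7.45 and 7.87% in Naive. The 3 groups did not overlap. The difference between Ag+Costim and Ag was -1.38 percentage points (exact permutation test, two-sided, p = 0.00794, the smallest that 5 against 5 libraries allow, lower in 5 of 5). Averaged over 5709 genes with at least 100 counts in every library, so that each gene weighs the same, the share within the gene was 9.42 ± 0.959% in Ag and 7.51 ± 0.253% in Ag+Costim (exact permutation p = 0.00794), and 11.8 and 12.2% in Naive. The 20 largest transcripts held 14.2% of the class, and without them the difference was -1.10 points. Ag replicate 4, the shallowest library, was the highest of its group, and without it the difference was -1.11 points. Of the class, 11517 transcripts were tested for usage, and 30 (0.26%) were called as used more and 63 (0.547%) as used less in Ag+Costim. Over all transcripts tested 1.42% were used more and 0.985% less, so both shares of the class were below the background. Of the 127 tested that hold a member intron, 1 was called, a Med12 transcript used less. The median log2 difference in usage was -0.01 over these 127 and -0.23 over the class.

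**Figure D5:**
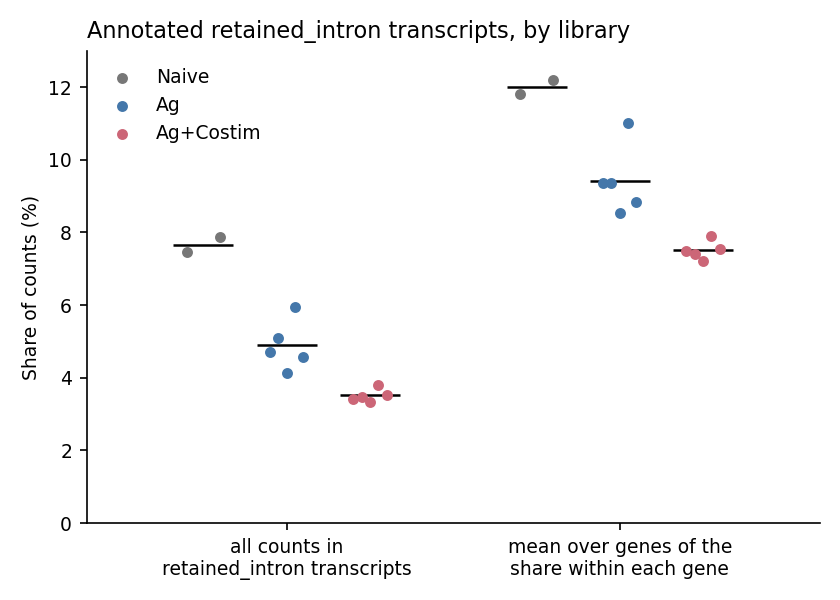
Share of counts in annotated retained_intron transcripts (y axis, percent) for each library of Naive, Ag and Ag+Costim, as a share of all annotated transcript counts (left) and as the mean over 5709 genes of the share within each gene (right), with group means as black bars. The order Naive, Ag, Ag+Costim holds without overlap in both measures.

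Malat1, a nuclear noncoding RNA and itself a host, had group means in the same order but overlapped between Naive and Ag, at 7530 and 7760 CPM in Naive, 4810 to 9730 in the Ag libraries and 625 to 1480 in those of Ag+Costim. Ag replicate 4 and Ag+Costim replicate 4, the highest of their groups in the class share, were also the highest in Malat1. Markers of other cells moved with the groups too and the part of Malat1 and of these markers in the results was not tested. The sum of the 4 erythroid markers was 519 to 5280 CPM in the Ag libraries, with 11.2 to 185 in Ag+Costim and 125 to 1710 in Naive. The 4 B cell markers summed to 108 to 154 CPM in the Ag libraries, with 22.2 to 57.1 in Ag+Costim and 27.2 to 29.7 in Naive, and the 4 myeloid markers to 34.0 to 141, 67.5 to 109 and 21.1 to 43.4. Cd4 was at 0 to 2.44 CPM in all libraries. No marker was at 0 throughout a group. In these sorted bulk samples, a different share of cells and a different level per cell cannot be told apart.

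Genes that recognize splice sites and that clear unspliced RNA were counted from lists that are not members. Of 17 genes that recognize splice sites early, 12 rose and 1 fell in Ag+Costim against Ag (edgeR, adjusted p below 0.05), with a median log2 fold change of 0.99, while 26.6% of all genes tested rose and 26.5% fell. They included U2af2, which binds the pyrimidine tract (2.25, SE 0.16), U2af1, which reads the AG (1.96), Sf3a2 of the U2 particle (2.17) and Snrnp70 of the U1 particle (1.72). U2af2 is also a host, with an intron at a Psi of 0.981 and 0.989. Of 11 tested genes of the minor spliceosome 2 rose and 6 fell, and of the 6 kinases of SR proteins Clk2 rose (0.55) and 4 fell, among them Clk1 (-1.03) and Clk4 (-0.91). Of 10 nonsense-mediated decay genes 5 rose, including the helicase Upf1 (2.29), and 3 fell. Of 5 exon junction complex genes 3 rose, and of 16 genes of the nuclear exosome and its targeting 8 rose and 3 fell. With upper-quartile scaling these counts were 11 and 2, 1 and 8, 1 and 5, and 4 and 5 for the first 4 lists, 3 exon junction genes still rose, and the exosome list counted 6 and 5. The shares over all genes with that scaling are not given here. In Ag against Naive, 5 early recognition genes were higher and 9 lower, and the decay genes counted 2 and 7, while 24.2% of all genes tested were higher and 22.5% lower.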

How the data were processed

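RNA of the 12 sorted T cell libraries was amplified with a SMART-Seq v4 kit, which does not mark strand, and read from Nextera XT libraries. Per the labels, the authors used HISAT2 2.1.0, SAMtools 1.9 and StringTie 2.1.0 with the mm10 assembly, and R 4.0.5 with DESeq2 1.30.1. The authors deposited gene and transcript counts without normalization, and a Whippet table in which Psi is a fraction with 1 value per group. How Whippet combined the libraries, and its version, are not given in the sources used here. The columns of that table with the authors' difference and its probability were not used, nor were the FPKM table and the sample tables.

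Lengths were taken from the coordinates of each node, and intron ends, position in the gene and transcripts that hold or splice an intron from GENCODE vM21. Of 81881 gene entries 55536 were annotated and of 168207 transcript entries 141862. The unannotated gene entries, with 0.0508 to 0.121% of counts per library, were left out. Gene counts were tested with edgeR 4.0.16 (quasi-likelihood, TMM scaling, filterByExpr, all 12 libraries in 1 fit, Benjamini-Hochberg over 18817 genes), and transcript usage with diffSpliceDGE of the same package over 41844 transcripts, with an adjusted p below 0.05 as a call. Host gene CPM were computed from library totals of the filtered genes with TMM scaling, and transcript CPM from total counts. They are therefore not on the same scale. Alternatives were DESeq2 1.42.0, limma 3.58.1, other scaling, no filter, a replicate block, other sizes of Psi difference and leaving out each library. The fits were checked on simulated counts with the same spread for every gene and transcript. Transcripts absent from some libraries and high in others were not simulated, so the check does not cover them. R 4.3.3 and Python 3.11.15 were used.

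The named introns were the 10 with the largest Psi difference in each direction, 1 per gene, in hosts with a mean log2 CPM above 5, the 10 with the smallest p in the usage test and a transcript mean log2 CPM above 2, the shortest, the longest and the highest in Psi, and up to 4 per list of host genes. The introns and all lists were chosen with earlier results of these data known. Gene counts per library were 24006053 to 49294934, and their number limits the precision of rarely counted transcripts. The floor of 3 counts per library covers counting error only.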

Additional observations from a re-analysis of the deposited data

Results flagged for a closer look

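Groups of 5 libraries, Ag or Ag+Costim, were examined for the share of counts in transcripts that hold a named intron. The share of the annotated retained_intron class was included. In 13 of 55 such groups 1 library lay far from the rest, with a gap to its neighbour above 0.71 of the range of the group. For 5 independent and normally distributed values this happens in about 1 of 20 groups. Percentages near their limits, from groups that share libraries, do not meet these conditions, so no excess can be read from the count. In the values below the gap is given as a fraction of the range.

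Among introns in genes that act on RNA, Ag replicate 1 was low for Srsf1 (15.9%, gap 0.824) and for Tardbp (67.1%, gap 0.776). Ag+Costim replicate 2 was low for Tardbp (73.1%, gap 0.743), and Ag+Costim replicate 3 was high for Dhx30 (60.4%, gap 0.796). For Pdcd4, Ag replicate 4 was high at 18.4% (gap 0.825) and Ag+Costim replicate 2 at 67.7% (gap 0.849), while the groups stayed apart without these libraries.

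In translation genes, Rps27a was at 77.2% in Ag+Costim replicate 2 (gap 0.908) and Eif4g1 at 50% in Ag replicate 1, with 0% in the other Ag libraries (gap 1.0). Nipa2 was at 19.6% in Ag+Costim replicate 1 and 100% in the other libraries (gap 1.0). In Ly6e the gap of Ag replicate 5 was 1.0 although all libraries were at 99.9% or 100% in that group. Rnf20 was high in Ag replicate 4 (95.9%, gap 0.758), Cant1 low in Ag+Costim replicate 2 (84.2%, gap 0.77) and Lck low in Ag+Costim replicate 1 (23.8%, gap 0.807). No explanation was tested for these libraries.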

How the results depend on the processing

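Psi has 1 value per group, so its differences have no replicate check. The share of introns that differed by more than 0.05 was 33.8%. It was 25.3% in hosts with a mean log2 CPM above 5, 33.9% with 1 intron per gene, 33.7% in annotated introns, 35.1% over 30 bases and 36.4% with GT and AG ends (the last 2 chosen after seeing the data). At a size of 0.1 it was 14.1%, with 47 introns higher and 65 lower. Counts of transcript usage calls moved by over 1.5 times with the tool and with single Naive libraries. In Ag+Costim against Ag, 26 transcripts were called by edgeR, 66 by limma and 16 with the 2 groups alone. In Ag against Naive, 23 were called by edgeR, 62 by limma and 15 with the replicate block. The cause was not tested. Leaving out 1 library gave 20 to 30 and 8 to 22 calls for usage, 420 to 461 and 287 to 431 for host genes, and -1.57 to -1.11 points for the share of retained_intron transcripts. Deviations of samples with the same number were weakly correlated (0.0159 to 0.0951), and the main fits did not pair them. The labels do not say whether the numbers mark pairs. With the replicate block 461 hosts were called in Ag+Costim against Ag (446 without) and 404 in Ag against Naive (414 without), and 24 transcripts in the former (26 without, 18 shared). Among single genes, introns and counts of calls in the gene lists, 1203 values kept their status as called or not, or stayed within 1.5 times. Of the rest, 40 lost the call, 18 gained it and 5 list counts moved. No called value reversed its direction, and direction was not compared where neither fit made a call. The alternative with FPKM shares was not run.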
